A study of Arabidopsis thaliana with 12 samples.

Results

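The response of rosettes of the Arabidopsis accession Shahdara (Sha) to an acute ozone (O3) exposure was described from RNA sequencing of 3 libraries from O3-exposed plants and 3 libraries from plants kept in clean air (CA). The part described is the 26239 genes with at least 1 count in any of these 6 libraries. The test and its adjustment ran over the 28549 genes that had a count in any of the 12 libraries of the series. Shares of all genes tested thus include genes without a count in Sha. The other 6 libraries come from the accession Cvi-0 (Cvi) under the same treatments. They are part of the normalisation and of the model fit behind every call, and otherwise serve only for comparison. Each library was made from 4 pooled whole rosettes of plants aged 3 weeks, so that a replicate is a pool and not a plant. The O3 plants had been exposed to 350 nL L-1 for 2 h. The CA plants had been kept for 2 h in unfiltered ambient air, which by the study's account holds background O3. The study treats Sha as an O3-sensitive accession and asks how its transcriptome differs from that of other accessions, and here the question is which functions are higher and which are lower in Sha after O3.

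Reactive oxygen species (ROS) form in the cell wall space when ozone reaches the inside of a leaf. Plants also make ROS there themselves, with NADPH oxidases of the RBOH family, when receptors at the cell surface perceive microbes or wounding. That signal runs through calcium, MAP kinases and the hormones salicylic acid, jasmonate, ethylene and abscisic acid to transcription factors of the WRKY, NAC, AP2/ERF and zinc finger families, and in sensitive genotypes it is followed by local cell death.

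The 6 Sha libraries held between 10794686 and 27895667 estimated counts. Gene coordinates are those of TAIR10.1. Levels are given as CPM (counts scaled to library size), adjusted with the TMM normalisation factors of edgeR. Each value is thus relative to the other transcripts of its library and not an amount per plant. The factor of O3 library II was 1.25, against 1.02 to 1.08 for the other Sha libraries. A larger factor gives lower CPM, so low values in that library partly reflect it. The libraries numbered II were the lowest of their treatment in the summed level of ribosomal protein genes, with 20656 CPM in CA and 15512 CPM in O3. They were also the lowest in both treatments for summed Calvin cycle genes (51515 CPM in CA and 10535 CPM in O3) and for the leaf markers given below. A 5.8S ribosomal RNA locus and the chloroplast-encoded share did not put them at the same end in both. In CA, the 5.8S ribosomal RNA locus AT3G41979 took 3984, 30000 and 16088 CPM in replicates I, II and III, and in O3 it took 12427, 11081 and 9270 CPM. Transcripts of chloroplast-encoded genes took 0.297, 1.43 and 0.849% of the counts in CA and 0.610, 0.341 and 0.920% in O3, and 0 of their 56 members with a mean of at least 1 CPM were called with edgeR, 0 passed an unadjusted p of 0.05, and DESeq2 called 0. The tissue label was checked against markers. Leaf markers summed to between 31242 and 44198 CPM in CA and, with 5 of 6 called lower, to 16901, 7150 and 11684 CPM in O3, root markers to between 53.4 and 67.2 CPM over the 6 libraries and floral markers to between 4.03 and 13.8 CPM, and the seed storage genes CRA1 and SESA1 stayed below 1 CPM.

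In Sha, 5105 genes (17.9% of the 28549 tested) were higher and 4744 (16.6%) were lower in O3 than in CA (likelihood-ratio test of edgeR for changes beyond 1.2-fold, false discovery rate of at most 0.05, the rule behind every call here). Of the 18666 genes that averaged 1 CPM or more in Sha, 4554 (24.4%) were higher and 4469 (23.9%) were lower, and the median log2 fold change of all of them was -0.05. These shares are the background against which the counts below are to be read. Called genes of this set changed by a median of 1.404 when higher and of -1.10 when lower on the log2 scale. Changes of at least 2 on that scale were found for 1517 higher genes, against 468 lower genes with -2 or less. A gene near 0 in 1 treatment can enter this set through the other treatment alone, so these numbers depend on the filter. By level in CA, they were 682 and 166 between 1 and 10 CPM. They were 435 and 243 between 10 and 100 CPM, and 26 and 75 between 100 and 1000 CPM. The O3 and CA libraries did not overlap for 94.5% of the 9849 called genes, 42.8% of all genes tested and 25.5% of the uncalled genes of at least 1 CPM. Without the libraries numbered II, 5605 genes were higher and 4395 lower.

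The direction of the response went with the level in CA. Of the 103 genes with at least 1000 CPM in CA, 89 (86.4%) were lower and 2 were higher in O3, and their median log2 fold change was -1.61. Of the 1358 genes between 100 and 1000 CPM, 671 were lower and 140 were higher. Of the 6573 genes between 1 and 10 CPM, 1050 were lower and 1604 were higher. The level in CA is also the baseline of the fold change, so that the measures are not independent. The 2 abundant genes that rose were UBQ10 and HSC70-1. UBQ10 (AT4G05320, chromosome 4, 2717977 to 2720308), which encodes polyubiquitin, had 1084, 1475 and 1043 CPM in CA and 3459, 1989 and 3927 CPM in O3 in replicates I, II and III. HSC70-1 (AT5G02500, chromosome 5, 553745 to 556623), a cytosolic chaperone, had 1754, 974 and 1451 CPM in CA and 3209.6, 2803 and 4088 CPM in O3. Their O3 libraries all lay above their CA libraries, with log2 fold changes of 1.38 and 1.27. Because whole rosettes were sampled, fewer cells of a type and less RNA per cell cannot be told apart, here and in all results below.

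**Figure D1:**
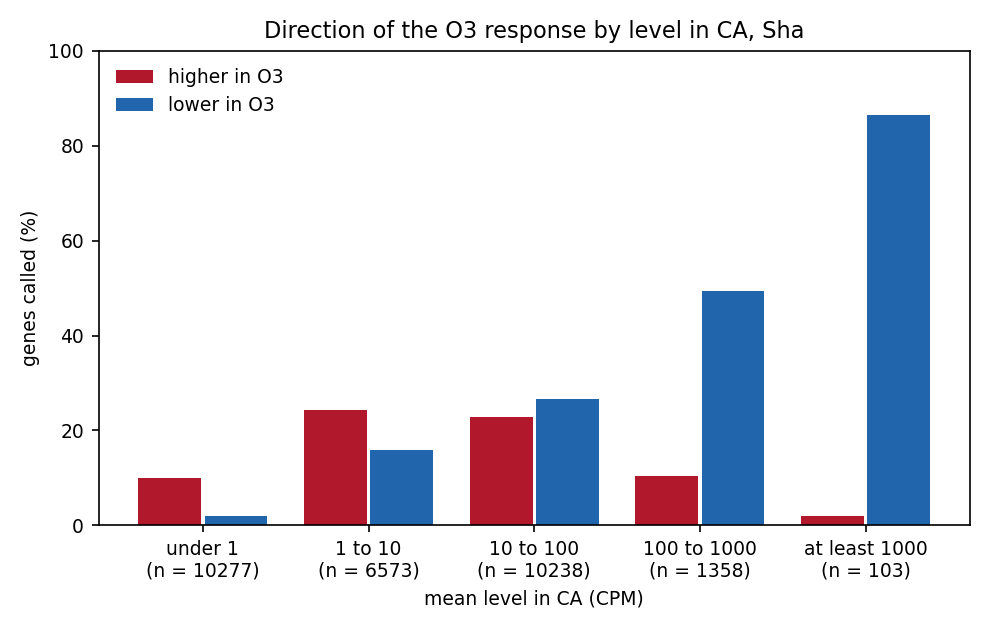
Percent of genes called higher (red) or lower (blue) in O3 than in CA in Sha, by the mean level of the gene in CA in CPM, with the number of genes in each class under the axis. Among the 103 genes with at least 1000 CPM, 86.4% were lower, while below 1 CPM 1021 genes were higher and 203 lower.

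Functions were described with 48 gene lists that hold 968 genes, of which 876 had a mean of at least 1 CPM in Sha and enter the counts. Of these, 367 were called higher and 264 lower. The following paragraphs take the lists by function, and the plot of list medians shows them side by side.

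**Figure D2:**
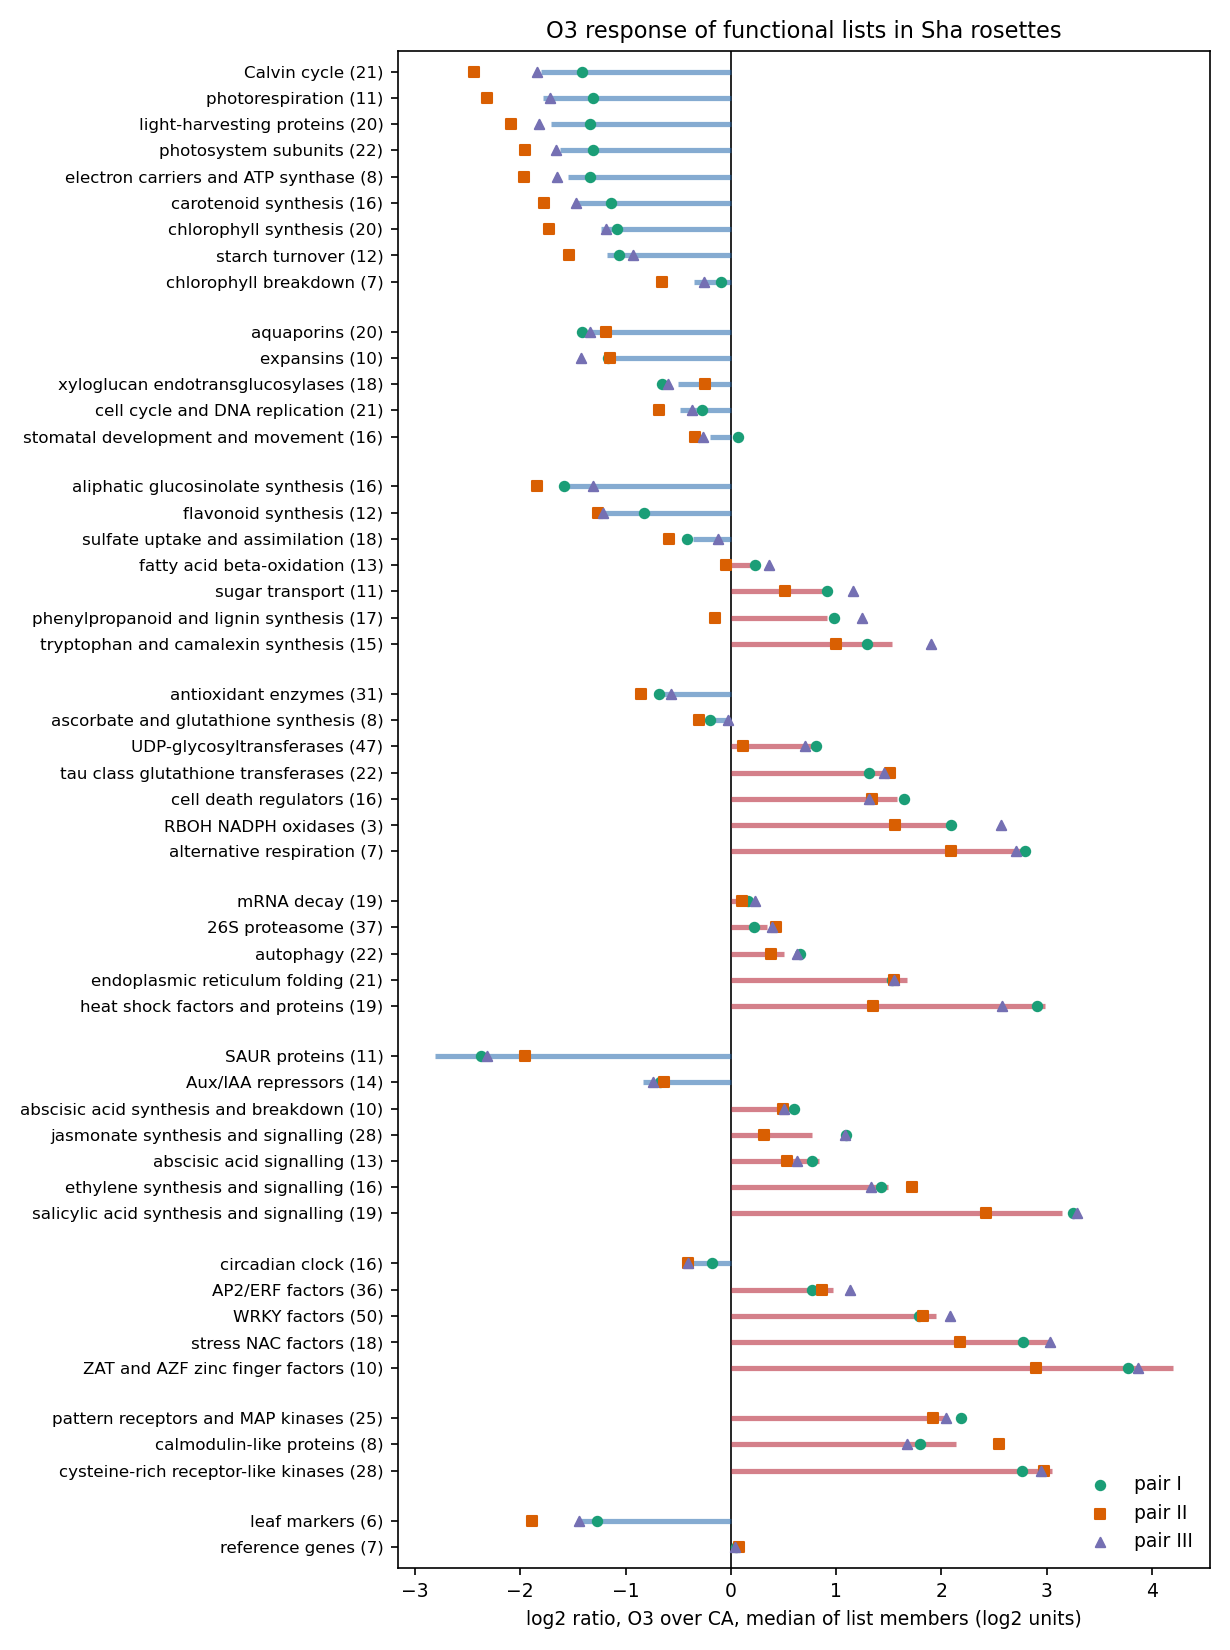
Median log2 ratio of O3 over CA in Sha for the members of each list with a mean of at least 1 CPM (their number in brackets). Bars are medians of the fitted log2 fold changes, and symbols are medians of the ratio within the libraries of the same number (circle I, square II, triangle III), computed on CPM plus 0.5. All medians of the light-harvesting, photosystem and Calvin cycle lists lie below -1, and those of the cysteine-rich receptor-like kinases lie above 2.

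Nuclear genes listed for light capture and electron transport in photosynthesis were lower in O3 throughout. The chloroplast-encoded genes are not in these lists, and 0 of their 56 members with a mean of at least 1 CPM were called (median log2 fold change 0.05). All 20 listed genes for light-harvesting proteins, which bind chlorophyll around the photosystems, were called lower, as were all 22 nuclear genes for photosystem subunits and all 8 measured genes for electron carriers and ATP synthase. Their median log2 fold changes were -1.70, -1.62 and -1.54. Summed over the list, light-harvesting transcripts took 76180, 74211 and 74361 CPM in CA and 29648, 19206 and 22372 CPM in O3, in replicates I, II and III. The groups did not overlap, and the O3 library numbered II was the lowest. LHCB2.3 had the largest change of the list and CAB1, with the most counts, one near the smallest (log2 -3.03 and -1.43), but both overlap another gene and CAB1 has near-identical copies, so that their values are uncertain. A near-identical copy is here a transcript 90% or more identical along 50% or more of its length. PSBO1 (AT5G66570, chromosome 5, 26568572 to 26570461), a subunit of the oxygen-evolving complex of photosystem II, had 4862, 4805 and 4639.8 CPM in CA and 1996, 1202 and 1483 CPM in O3. Each O3 library lay below each CA library (log2 fold change -1.61, SE 0.21, adjusted p = 8.42e-11, edgeR).

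The genes listed for carbon fixation were mostly lower too. Of the 21 listed genes of the Calvin cycle 20 were lower (median -1.81), and of the 11 genes of photorespiration, the salvage pathway for the product of Rubisco's reaction with oxygen, 11 were lower (median -1.79). The RBCS genes encode the small subunit of Rubisco. RBCS1A (AT1G67090, chromosome 1, 25048158 to 25049667) had 14634, 7705 and 11818 CPM in CA and 5753, 1964 and 4352 CPM in O3. All O3 values lay under all CA values, although replicate II was the lowest in both treatments (log2 fold change -1.50, SE 0.33, adjusted p = 0.000221, edgeR). Rubisco activase, RCA (AT2G39730, chromosome 2, 16570746 to 16573692), had 12541, 11451 and 10181 CPM in CA and 3834, 2077 and 2110.3 CPM in O3. Again the groups were apart (log2 fold change -2.09, SE 0.24, adjusted p = 1.79e-13, edgeR), but RCA overlaps AT2G39725 and is uncertain. SBPASE, an enzyme that regenerates the acceptor of CO2, and FBA1, a plastid aldolase, also fell (log2 -2.12 and -2.60). In photorespiration the peroxisomal glycolate oxidase gene GOX2 fell from 611 to 672 CPM in CA to 124 to 212 CPM in O3, a log2 fold change of -2.05. The member of the Calvin cycle list that was not called was CP12-3, at 0.75.

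The 250 bases before the annotated start of RBCS2B, a small subunit gene with near-identical copies, and of RCA are shown because these genes fell among the most abundant transcripts and hold the I-box, GATAAG, a motif known from promoters of light-regulated genes. Sequences are of TAIR10.1 (RefSeq), 5′ to 3′ on the strand of the gene, and the start is the annotated start of the RefSeq gene. RBCS2B lies on the minus strand with its window at chr5:15382072-15382321, and RCA on the minus strand at chr2:16573693-16573942. Capitals mark GATAAG or its reverse complement, which begin at -146, -115 and -94 in RBCS2B and at -133 in RCA, counted from -1 at the base before the start.
RBCS2B: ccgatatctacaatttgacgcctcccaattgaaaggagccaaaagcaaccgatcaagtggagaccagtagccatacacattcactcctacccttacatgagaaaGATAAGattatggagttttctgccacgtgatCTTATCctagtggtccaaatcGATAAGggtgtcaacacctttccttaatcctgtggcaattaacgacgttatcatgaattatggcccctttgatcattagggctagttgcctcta
RCA: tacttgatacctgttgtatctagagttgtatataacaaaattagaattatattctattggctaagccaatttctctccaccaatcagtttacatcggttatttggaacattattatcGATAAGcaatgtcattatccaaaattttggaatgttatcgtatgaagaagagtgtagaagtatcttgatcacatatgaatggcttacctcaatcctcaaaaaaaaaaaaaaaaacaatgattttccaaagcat
The I-box was found in 13.7% of the windows of genes lower in Sha, in 12.6% of those of higher genes and in 11.6% of those of genes called neither (mean of at least 1 CPM, both strands). It was in 5 of 21 Calvin cycle windows (23.8%) and in 4 of 20 light-harvesting windows (20%), but in 0 of 11 photorespiration windows, 0 of 12 starch turnover windows and 1 of 20 chlorophyll synthesis windows (5%), although most genes of these lists also fell. Of all genes tested 12.4% held it, and so did 10 of 50 WRKY windows (20%), a list that was mostly higher. The windows were chosen after the matches were seen, and a match of letters is not a binding site.

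Pigment and starch pathways moved in the same direction. Of 20 chlorophyll synthesis genes 14 were lower and 1 was higher (median -1.23), and of 16 carotenoid genes 15 were lower (median -1.47). GUN5 (AT5G13630, chromosome 5, 4387307 to 4392429), the H subunit of magnesium chelatase at the branch to chlorophyll, had 3062, 2341 and 3009 CPM in CA and 875, 327 and 618 CPM in O3. The O3 libraries were all lower, with replicate II lowest (log2 fold change -2.21, SE 0.29, adjusted p = 4.66e-11, edgeR). The exception was HEMA2 (AT1G09940, chromosome 1, 3236908 to 3239554), 1 of the genes for glutamyl-tRNA reductase, the enzyme at the start of tetrapyrrole synthesis. HEMA2 had 16.6, 10.102 and 15.2 CPM in CA and 150.2, 41.1 and 156 CPM in O3. It rose in every pair, least in replicate II (log2 fold change 3.05, SE 0.37, adjusted p = 4.70e-12, edgeR), while its relative HEMA1 fell (-1.82). ABA1, the zeaxanthin epoxidase of the xanthophyll cycle, fell by more than any other carotenoid gene listed (-2.04). Chlorophyll breakdown was divided, with 1 higher and 3 lower of 7. The count of higher genes was 3 without CA replicate II and 0 without CA replicate III or O3 replicate II. The higher member, AT4G11910, a STAY-GREEN-like gene, rests on 1 library: it had 3.72, 4.87 and 2.58 CPM in CA and 5.70, 21.1 and 4.37 CPM in O3, the groups overlapped, and without O3 replicate II its log2 fold change of 1.49 became 0.42 and was not called. In starch turnover 10 of 12 genes were lower, led by the granule-bound starch synthase GBSS1 (-2.44).

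Genes of cell expansion and water transport were also mostly lower. Of 10 expansins, which loosen cell walls, 9 were lower (median -1.19), and of 20 aquaporins, which carry water across membranes, 15 were lower and 2 higher (median -1.36). PIP2A (AT3G53420, chromosome 3, 19803473 to 19805730), a plasma membrane aquaporin, had 1155, 1203 and 1165 CPM in CA and 250.3, 203 and 211 CPM in O3. The spread within each group was small and the groups were far apart (log2 fold change -2.41, SE 0.18, adjusted p = 5.51e-31, edgeR). EXPA8 (AT2G40610, chromosome 2, 16948791 to 16950705) had 49.2, 24.9 and 109.5 CPM in CA and 2.16, 4.34 and 5.73 CPM in O3. All O3 values were under all CA values (log2 fold change -3.90, SE 0.49, adjusted p = 4.91e-11, edgeR), and without CA replicate III the log2 fold change was -3.07. EXPA16 was the single expansin to rise (1.96). SAUR genes, small auxin-induced genes linked to cell elongation, had the lowest median of all lists, -2.81, with 9 lower and 1 higher of 11. AT4G38860, a SAUR-like gene outside that list, had 51.3, 33.9 and 65.9 CPM in CA and 2.96, 2.59 and 2.75 CPM in O3. Every O3 library was lower (log2 fold change -4.19, SE 0.24, adjusted p = 2.08e-52, edgeR). The Aux/IAA repressors of auxin signalling were 8 lower and 2 higher of 14 (median -0.84), with IAA14 at -3.13 and IAA10, which overlaps AT1G04105, at 1.77 (2.55 without the libraries numbered II).

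Xyloglucan endotransglucosylases, which cut and rejoin wall polymers, went in both directions, with 5 higher and 8 lower of 18. XTH31 (AT3G44990, chromosome 3, 16446935 to 16448844) had 82.4, 63.4 and 62.4 CPM in CA and 7.36, 5.97 and 4.15 CPM in O3. All O3 values were lower (log2 fold change -3.59, SE 0.23, adjusted p = 1.99e-43, edgeR). TCH4, a touch-induced member, rose (2.68, and 2.02 without O3 replicate I). XTH18 had 0.181, 0.509 and 1.37 CPM in CA and 98.5, 1.09 and 138 CPM in O3. The O3 library numbered II overlapped the CA libraries while the others were far above them, and XTH18 has a near-identical copy, so its called log2 fold change of 6.78 is uncertain, and it was 7.81 without CA replicate III and 6.14 without O3 replicate III. Cell cycle and DNA replication genes were 4 lower and 0 higher of 21 (median -0.48), and with a replicate block in the model 9 were lower and 1 was higher. Without CA replicate I 2 were lower, and without CA replicate II 9. The share without the block is below that of all genes. CYCD1;1, a D-type cyclin, was the one with the lowest value (-1.18).

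Hormone pathways differed from each other. In the salicylic acid list 18 of 19 genes were higher and 0 lower (median 3.14). EDS16 (AT1G74710, chromosome 1, 28070295 to 28074177), the isochorismate synthase through which most stress-induced salicylic acid is made, had 29.9, 34.2 and 29.4 CPM in CA and 653, 399 and 721 CPM in O3. The O3 libraries were all far above, least in replicate II (log2 fold change 4.25, SE 0.25, adjusted p = 4.14e-46, edgeR). EDS5, which exports the isochorismate from the plastid and overlaps AT4G39040, and PBS3, which conjugates it, rose as well (4.98, and 4.28 with all libraries or 4.88 without those numbered II), as did PAD4 (2.71), a partner of EDS1 in immune signalling. The exception was PR1, a late marker of salicylic acid signalling. PR1 had 271, 34.3 and 265 CPM in CA and 429, 30.3 and 267 CPM in O3. Its values overlapped, and the libraries numbered II were the lowest in both treatments, so that the log2 fold change of 0.35, SE 0.82 was not called.

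Ethylene genes were 13 higher and 0 lower of 16 (median 1.49). EFE (AT1G05010, chromosome 1, 1431177 to 1433010), an ACC oxidase that forms ethylene, had 147, 155 and 184 CPM in CA and 1586, 2563 and 1764 CPM in O3. The groups did not overlap and replicate II was the highest in O3 (log2 fold change 3.60, SE 0.22, adjusted p = 1.03e-41, edgeR). ACS6, an ACC synthase known as a target of MAP kinases, rose by 3.03, and ACS2 by 4.05 (3.47 without O3 replicate III). The receptor gene ETR1 rose by 0.63, with an overlap with AT1G66345. In the jasmonate list 13 of 28 genes were higher and 1 lower (median 0.77). The median ratio was 1.09 and 1.09 in pairs I and III but 0.31 in pair II. AOC3 (AT3G25780, chromosome 3, 9409160 to 9411090), an allene oxide cyclase, had 3.99, 2.54 and 3.95 CPM in CA and 179.6, 101 and 273 CPM in O3. All O3 libraries were higher, and the pair ratio was lowest in replicate II (log2 fold change 5.72, SE 0.32, adjusted p = 1.76e-46, edgeR). JAZ1, a repressor that jasmonate itself induces, and OPR3, the peroxisomal reductase of the pathway, also rose (4.47 and 2.80), while MYC2, the factor JAZ proteins repress, had 0.41 and was not called. LOX2, a plastid lipoxygenase, was the lower member (-1.13). Its libraries overlapped, and the call was lost when any of 4 Sha libraries was left out. These were CA I or III and O3 II or III, with -0.89, -1.12, -0.75 and -0.95, while without O3 replicate I it was -1.84. The call was also lost with the quasi-likelihood test (-1.13), DESeq2 (-1.11) and the 6 Sha libraries alone (-1.10). Abscisic acid was divided, with 5 higher and 1 lower of 10 synthesis and breakdown genes and 6 higher and 3 lower of 13 signalling genes. The last count of lower genes was 5 without O3 replicate II and 1 without CA replicate II, O3 replicate I or O3 replicate III. NCED3, the dioxygenase that limits its synthesis under drought, rose by 1.94, CYP707A2, a catabolic hydroxylase, fell (-2.34), and the receptor gene PYL5 rose by 2.35.

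Immune perception and early signalling were higher almost without exception. Of 25 listed pattern receptors, co-receptors, danger peptides and MAP kinases 24 were higher and 0 lower (median 2.06). BIK1 (AT2G39660, chromosome 2, 16531527 to 16533986), a cytoplasmic kinase that pattern receptors activate, had 10.7, 8.50 and 10.13 CPM in CA and 104, 96.4 and 135 CPM in O3. The groups were apart (log2 fold change 3.52, SE 0.20, adjusted p = 7.28e-53, edgeR). MPK11 (AT1G01560, chromosome 1, 202103 to 204440) rose from about 4 CPM: it had 3.63, 3.92 and 4.26 CPM in CA and 213, 117 and 192 CPM in O3. The O3 libraries were far higher (log2 fold change 5.46, SE 0.28, adjusted p = 1.00e-59, edgeR). MPK3, known to be activated by O3, rose by 1.67, and the co-receptor BAK1 by 2.42, but both overlap another gene. PROPEP3, which encodes the precursor of a danger peptide, rose by 5.31, and by 5.99 without the libraries numbered II. Of the 28 cysteine-rich receptor-like kinases (CRKs), a family linked to ROS, 25 were higher and 1 lower, with a median of 3.05. CRK13 (AT4G23210, chromosome 4, 12148673 to 12151638) had 7.98, 9.08 and 7.59 CPM in CA and 800.4, 414 and 1223 CPM in O3. Its O3 libraries were all higher, with replicate II lowest (log2 fold change 6.63, SE 0.35, adjusted p = 1.19e-47, edgeR). CRK21 (AT4G23290, chromosome 4, 12177734 to 12180936) went against the family and had 60.4, 68.6 and 67.5 CPM in CA and 12.5, 11.9 and 10.11 CPM in O3. Every O3 library was lower (log2 fold change -2.52, SE 0.18, adjusted p = 2.55e-33, edgeR).

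Calcium and ROS genes rose with them. All 8 calmodulin-like genes with at least 1 CPM were higher (median 2.14). CML37 (AT5G42380, chromosome 5, 16942447 to 16943820) had 1.54, 0.872 and 0.721 CPM in CA and 275, 71.7 and 229.6 CPM in O3. The 3 O3 values were all higher, but that of replicate II was the lowest (log2 fold change 7.57, SE 0.46, adjusted p = 2.80e-38, edgeR). TCH3, known from touch responses, reached 1737 to 2159 CPM in O3, a log2 fold change of 4.81, and overlaps 2 other annotated genes, so its value is uncertain. Among the NADPH oxidases, RBOHD (AT5G47910, chromosome 5, 19397041 to 19402061), the main source of the oxidative burst in leaves, had 78.6, 85.9 and 58.5 CPM in CA and 337, 244 and 348 CPM in O3. The groups were apart (log2 fold change 2.06, SE 0.20, adjusted p = 2.57e-18, edgeR). RHD2 (RBOHC), known for its part in root hair growth, had 0.272, 0.218 and 0.172 CPM in CA and 128, 16.8 and 127 CPM in O3. It was near 0 in CA and much lower in O3 replicate II than in I and III (log2 fold change 8.70, SE 0.70, and 9.33 without the libraries numbered II).

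**Figure D3:**
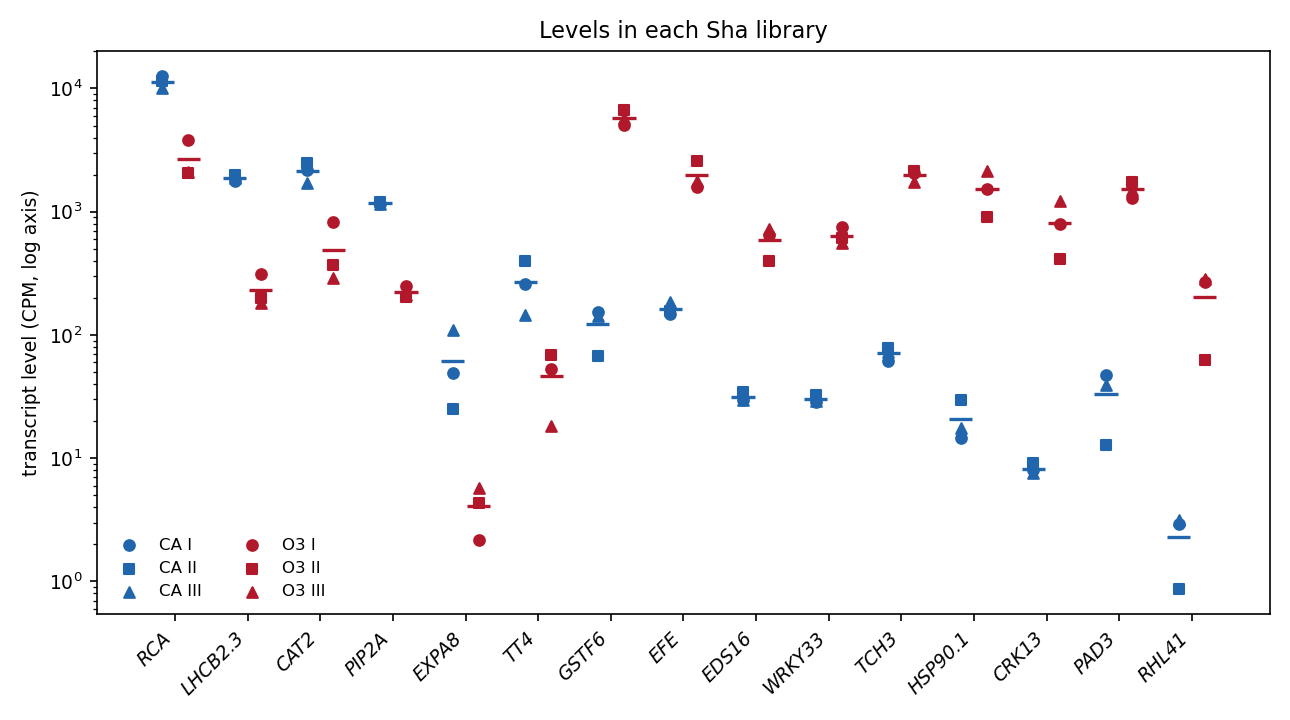
Levels of 15 genes in each Sha library in CPM on a log axis, CA in blue and O3 in red, with circles for replicate I, squares for II, triangles for III and a bar at the mean of 3. The groups do not overlap for any of the genes drawn, and replicate II is the lowest O3 library for EDS16, HSP90.1, CRK13 and RHL41 and the highest for GSTF6, EFE and PAD3.

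Transcription factors of 4 stress families were mostly higher. WRKY factors were 36 higher and 1 lower of 50 (median 1.95), stress-linked NAC factors 18 higher of 18 (median 3.02), ZAT and AZF zinc finger factors 9 higher and 1 lower of 10 (median 4.198), and AP2/ERF factors 21 higher and 3 lower of 36 (median 0.97). WRKY33 (AT2G38470, chromosome 2, 16108235 to 16110766), known for the control of camalexin synthesis, had 28.4, 32.6 and 29.2 CPM in CA and 748, 608 and 561 CPM in O3. The groups were far apart (log2 fold change 4.41, SE 0.26, adjusted p = 1.58e-45, edgeR), but WRKY33 overlaps other annotated genes and is uncertain. WRKY46 (AT2G46400, chromosome 2, 19043411 to 19044955) had 7.35, 12.9 and 7.76 CPM in CA and 498, 436 and 604 CPM in O3. Its O3 libraries were all higher (log2 fold change 5.78, SE 0.23, adjusted p = 3.37e-90, edgeR). WRKY30, WRKY40 and WRKY53 rose by 6.69, 6.63 and 5.60 on the log2 scale, the last 2 with an overlapping neighbour. WRKY3 fell (-0.84). RHL41 (AT5G59820, chromosome 5, 24102814 to 24103794), also called ZAT12 and known to respond to ROS, had 2.90, 0.872 and 3.16 CPM in CA and 270.1, 62.5 and 282 CPM in O3. It was near 1 to 3 CPM in CA and higher in each O3 library, by less in replicate II (log2 fold change 6.46, SE 0.57, adjusted p = 4.07e-18, edgeR). STZ (ZAT10) rose by 4.58, ATAF2, the NAC gene with the most counts, by 4.54 (with an overlapping neighbour), ERF6 by 5.19, and RAP2.7, a repressor of flowering, fell (-1.65).

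WRKY factors bind the W-box, whose core is TTGAC, and the promoters of 4 of the factors that rose are shown with it. They lie at chr2:16107985-16108234 (plus strand), chr5:8154711-8154960 (minus), chr2:15706035-15706284 (plus) and chr5:24102564-24102813 (plus) of TAIR10.1. Capitals mark TTGAC or its reverse complement GTCAA, which begin at -95 and -31 in WRKY33, at -124, -68 and -60 in WRKY30, at -97 and -19 in ZAT11 and at -205 and -200 in RHL41. ZAT11, the member of this set not given above, had 0.181, 0 and 0.137 CPM in CA and 41.3, 31.8 and 25.6 CPM in O3.
WRKY33: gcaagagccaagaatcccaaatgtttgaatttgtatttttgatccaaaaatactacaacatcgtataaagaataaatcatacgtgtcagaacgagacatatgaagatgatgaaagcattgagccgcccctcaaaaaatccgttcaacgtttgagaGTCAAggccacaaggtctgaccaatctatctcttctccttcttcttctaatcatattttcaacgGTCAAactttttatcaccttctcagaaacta
WRKY30: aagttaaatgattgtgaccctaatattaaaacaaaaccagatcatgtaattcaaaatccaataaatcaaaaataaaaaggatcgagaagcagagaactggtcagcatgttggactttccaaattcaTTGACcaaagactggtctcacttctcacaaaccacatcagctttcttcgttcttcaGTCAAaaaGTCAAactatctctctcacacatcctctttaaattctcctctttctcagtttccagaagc
ZAT11: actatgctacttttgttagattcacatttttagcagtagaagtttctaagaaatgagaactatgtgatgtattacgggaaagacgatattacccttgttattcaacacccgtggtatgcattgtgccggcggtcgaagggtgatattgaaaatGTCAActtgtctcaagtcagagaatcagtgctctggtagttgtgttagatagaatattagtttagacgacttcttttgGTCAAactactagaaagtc
RHL41: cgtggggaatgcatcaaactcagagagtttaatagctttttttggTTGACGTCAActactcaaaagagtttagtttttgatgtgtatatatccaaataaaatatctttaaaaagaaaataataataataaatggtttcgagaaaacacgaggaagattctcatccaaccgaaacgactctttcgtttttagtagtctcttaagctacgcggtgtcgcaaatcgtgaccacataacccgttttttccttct
The core was in 54.3% of the windows of higher genes, in 39.7% of those of lower genes and in 42.8% of those of genes called neither, against 44.8% of all genes tested. It was in 9 of 10 ZAT and AZF windows (90%), 19 of 28 CRK windows (67.9%) and 28 of 50 WRKY windows (56%), and in 6 of 20 light-harvesting windows (30%). Other lists went against this order. Among lists that were mostly higher, it was in 7 of 18 NAC windows (38.9%) and 7 of 16 ethylene windows (43.8%), and among lists that were mostly lower, in 7 of 11 photorespiration windows (63.6%) and 7 of 12 starch turnover windows (58.3%). Where a G follows, the core overlaps the as-1 core TGACG, as in RHL41. The CAMTA box CGCGT, the site of calmodulin-binding transcription activators, was in 10.2% of the windows of higher genes, 6.34% of lower genes and 6.72% of neither. These windows were chosen after the matches were seen.

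Antioxidant genes did not move together. Of 31 listed antioxidant enzymes 6 were higher and 15 lower (median -0.73). CAT2 (AT4G35090, chromosome 4, 16700312 to 16703504), the leaf catalase of the peroxisome, had 2200.2, 2492 and 1701 CPM in CA and 824, 367 and 290 CPM in O3. The O3 libraries were the lower ones (log2 fold change -2.11, SE 0.32, adjusted p = 2.43e-08, edgeR), but CAT2 overlaps AT4G35080 and is uncertain. GPX2, a glutathione peroxidase with an overlapping neighbour, rose by 2.00. APX1, the cytosolic ascorbate peroxidase, had 809, 995 and 759 CPM in CA and 1102, 1436 and 1435 CPM in O3. Its groups did not overlap and it was called (0.63). The call was lost without CA replicate I (0.59), CA replicate III (0.63) or O3 replicate II (0.53). It was also lost with DESeq2 (0.65), with the 6 Sha libraries alone (0.67) and against a log2 fold change of 1.2. In ascorbate and glutathione synthesis 2 genes were higher and 3 lower of 8, with the glutathione synthetase GSH2 at 1.13 and VTC4, of ascorbate synthesis, at -1.27.

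Detoxification genes were largely higher. Tau class glutathione transferases (GSTUs), which couple glutathione to reactive compounds, were 14 higher and 4 lower of 22 (median 1.53), and UDP-glycosyltransferases, which attach sugars to small molecules, 23 higher and 9 lower of 47 (median 0.81). The median ratio of the latter was 0.81 and 0.70 in pairs I and III but 0.11 in pair II. GSTU24 (AT1G17170, chromosome 1, 5869543 to 5870883) had 2.81, 2.40 and 1.17 CPM in CA and 109.6, 166 and 175 CPM in O3. The O3 values were all higher (log2 fold change 6.18, SE 0.44, adjusted p = 4.51e-28, edgeR). GSTU20, which has the most counts in the family, fell (-0.99), and the summed level of the GSTU list overlapped between the groups, at 2227, 2689.7 and 2260.4 CPM in CA and 2568, 2299.8 and 3253 CPM in O3. UGT85A1 (AT1G22400, chromosome 1, 7903660 to 7906969) had 19.7, 9.88 and 21.2 CPM in CA and 679, 138 and 1061 CPM in O3. Each O3 library was higher, replicate II by the least (log2 fold change 5.21, SE 0.51, adjusted p = 1.01e-15, edgeR). In alternative respiration, which lets electrons bypass part of the mitochondrial chain, 5 genes were higher and 2 lower of 7. NDB2 (AT4G05020, chromosome 4, 2572427 to 2576599), an external NAD(P)H dehydrogenase, had 32.6, 34.4 and 27.3 CPM in CA and 402, 412 and 509 CPM in O3. Every O3 library was higher by a like amount (log2 fold change 3.81, SE 0.18, adjusted p = 1.79e-71, edgeR). The alternative oxidase gene AOX1A rose by 2.77, and by 3.42 without CA replicate II. Of 16 cell death regulators 13 were higher and 0 lower (median 1.58). RCD1, whose mutant is O3-sensitive, rose by 1.16. BON1 had the largest fitted change of the list (8.72), but it overlaps AT5G61910 with a stretch of identical sequence and is uncertain, and without the libraries numbered II it was 9.43.

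Chaperones formed another group with large increases. Heat shock factors and proteins were 15 higher and 1 lower of 19 (median 2.98), and the median ratio was 2.91 and 2.57 in pairs I and III but 1.35 in pair II. HSP90.1 (AT5G52640, chromosome 5, 21352557 to 21355147), the heat-inducible cytosolic HSP90, had 14.6, 29.9 and 17.55 CPM in CA and 1530.1, 901 and 2149.5 CPM in O3. All O3 libraries were far above the CA libraries (log2 fold change 6.21, SE 0.34, adjusted p = 1.62e-44, edgeR), and without the libraries numbered II the log2 fold change was 6.90. Hsp70-2 (AT5G02490, chromosome 5, 550035 to 552827) had 29.6, 38.2 and 27.2 CPM in CA and 2136, 1544 and 3403 CPM in O3. The groups were as far apart (log2 fold change 6.22, SE 0.27, adjusted p = 2.17e-72, edgeR). HSP23.6-MITO, a small heat shock protein of mitochondria, had no count in CA and 3.25, 3.68 and 6.30 CPM in O3, at least 22.3-fold higher against a floor of 3 counts per library. Folding genes of the endoplasmic reticulum were 18 higher and 0 lower of 21 (median 1.67). BZIP60 (AT1G42990, chromosome 1, 16135723 to 16137463), the factor whose mRNA is spliced when unfolded protein accumulates, had 22.9, 25.9 and 18.6 CPM in CA and 251, 257 and 246 CPM in O3. The O3 libraries were alike and all higher (log2 fold change 3.49, SE 0.18, adjusted p = 2.88e-60, edgeR). BIP3, its chaperone target, rose by 4.82 from about 1 CPM, and the more abundant BIP2 by 2.36, although BIP2 has a near-identical copy.

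HSFA2 (AT2G26150, chromosome 2, 11135624 to 11137792), a heat shock factor known to respond to ROS, had 4.35, 4.43 and 3.16 CPM in CA and 207, 94.8 and 192 CPM in O3. Each O3 library was higher, replicate II by the least (log2 fold change 5.38, SE 0.30, adjusted p = 5.39e-48, edgeR). Its promoter, at chr2:11135374-11135623 on the plus strand, is shown because it holds the heat shock element GAANNTTC, the site of these factors, in capitals at -88 and -33.
HSFA2: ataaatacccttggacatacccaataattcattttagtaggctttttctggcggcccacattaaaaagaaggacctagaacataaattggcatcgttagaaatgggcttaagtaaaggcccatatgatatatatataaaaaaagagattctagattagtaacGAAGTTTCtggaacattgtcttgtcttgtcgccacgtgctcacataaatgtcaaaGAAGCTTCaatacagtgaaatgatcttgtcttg
This element was in 12.3% of the windows of higher genes, 7.64% of lower genes and 9.13% of neither, against 9.36% of all genes tested, and in 5 of 19 windows (26.3%) of the heat shock list.

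Protein and RNA turnover moved less. Of 37 proteasome subunit genes 11 were higher and 0 lower, with a median of 0.34 (17 higher without O3 replicate I and 7 without O3 replicate II), and RPN8A, the subunit gene with the most counts, had -0.05, SE 0.17 and was not called. Autophagy genes were 11 higher and 1 lower of 22 (median 0.51), with 6 higher without CA replicate I. NBR1, a receptor for autophagic cargo that overlaps AT4G24700, rose by 1.23, and ATG8H by 1.72. Genes of mRNA decay were 3 higher and 1 lower of 19 (median 0.14), which is below the background. CAF1b (AT5G22250, chromosome 5, 7365477 to 7366799), a deadenylase subunit, stood apart with 3.45, 4.22 and 3.37 CPM in CA and 65.3, 60.8 and 64.0 CPM in O3. Its groups did not overlap (log2 fold change 4.11, SE 0.29, adjusted p = 3.22e-35, edgeR).

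Secondary metabolism was divided by pathway. In tryptophan and camalexin synthesis, which makes the main phytoalexin of Arabidopsis, 8 genes were higher and 0 lower of 15 (median 1.53). PAD3 (AT3G26830, chromosome 3, 9887917 to 9889791), the last enzyme of the camalexin pathway, had 47.7, 12.8 and 39.6 CPM in CA and 1295, 1754 and 1504 CPM in O3. The O3 libraries were all far higher, and the CA library numbered II was the lowest (log2 fold change 5.51, SE 0.48, adjusted p = 2.56e-19, edgeR). CYP71A12 and CYP71A13, cytochrome P450 enzymes of the pathway with near copies and so uncertain, rose by 5.67 and 3.60, and ASA1, an anthranilate synthase subunit, by 1.94, with overlapping neighbours. Aliphatic glucosinolates, which are defence compounds made from methionine, went the other way, with all 16 genes lower (median -1.55). MAM1 (AT5G23010, chromosome 5, 7703041 to 7706973), which elongates the methionine chain, had 1164, 1978 and 1118 CPM in CA and 408, 549.9 and 495 CPM in O3. All O3 values were lower, with replicate II highest in both groups (log2 fold change -1.55, SE 0.25, adjusted p = 3.15e-07, edgeR). The regulators MYB28 and MYB76 fell with the enzymes (-1.47 and -3.51).

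Of 17 phenylpropanoid and lignin genes 9 were higher and 3 lower (median 0.91), but the median ratio was 0.98 and 1.25 in pairs I and III and -0.15 in pair II. PAL1 (AT2G37040, chromosome 2, 15557367 to 15560755), at the entry to the pathway, shows this, with 105, 99.9 and 91.4 CPM in CA and 457, 125 and 644 CPM in O3. Each O3 library was higher than each CA library, replicate II by little (log2 fold change 2.05, SE 0.41, adjusted p = 2.36e-05, edgeR). Flavonoid genes were 7 lower and 0 higher of 12 (median -1.23), with the chalcone synthase gene TT4, which overlaps AT5G13940, at -2.52 and the flavonol synthase gene FLS1 at -2.32. Sulfate uptake and assimilation was 3 higher and 7 lower of 18. Sugar transport was 5 higher and 0 lower of 11. MSS1 (AT5G26340, chromosome 5, 9243398 to 9247540), the hexose importer also called STP13, had 27.5, 20.7 and 23.8 CPM in CA and 275, 338 and 397 CPM in O3. Its O3 libraries were all higher (log2 fold change 3.81, SE 0.22, adjusted p = 1.98e-46, edgeR), and the cell wall invertase gene ATBFRUCT1 rose too (3.77). In fatty acid beta-oxidation 5 genes were higher and 2 lower of 13, with ACX1, an acyl-CoA oxidase that also serves jasmonate synthesis, at 2.47.

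Stomatal genes had fewer calls than the background in both directions, and clock genes fewer higher and more lower. Of 16 genes of stomatal development and movement 1 was higher and 3 were lower (median -0.20). HA1, the proton pump also called AHA1, was the higher member and had 545, 508 and 517 CPM in CA and 811, 827 and 845 CPM in O3. The groups did not overlap (log2 fold change 0.66, SE 0.15, adjusted p = 0.00405, edgeR). GHR1, a receptor-like kinase of stomatal closure, fell (-1.34). OZS1 (SLAC1), the guard cell anion channel, had 7.71, 12.4 and 5.67 CPM in CA and 7.79, 18.8 and 5.24 CPM in O3. Its groups overlapped, replicate II was the highest in both, and 0.31, SE 0.41 was not called. MPK12, a MAP kinase of guard cells, had -0.19 and was not called. Without O3 replicate III, 1 gene of the stomatal list was lower. Clock genes were 3 higher and 5 lower of 16, and 3 were lower without O3 replicate III. The morning gene CCA1 (AT2G46830, chromosome 2, 19245591 to 19248915) had 177, 252 and 168 CPM in CA and 82.3, 84.0 and 42.9 CPM in O3. All O3 libraries were lower (log2 fold change -1.51, SE 0.27, adjusted p = 4.19e-06, edgeR), while the evening gene TOC1 rose by 1.09. Of 7 reference genes, 6 were not called, with log2 fold changes between -0.25 and 0.28, and UBQ10 rose as given above.

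Apart from lists, the largest gains in CPM were in GSTF6, AT1G79245, PEN3, NADP-ME2, GSTF2 and GSTF7. PEN3 (AT1G59870, chromosome 1, 22034423 to 22040126), a plasma membrane transporter of defence compounds, had 352, 411 and 366 CPM in CA and 4228, 3877 and 4068 CPM in O3. The groups were far apart with little spread (log2 fold change 3.43, SE 0.22, adjusted p = 1.92e-41, edgeR). NADP-ME2 (AT5G11670, chromosome 5, 3754091 to 3758342), a cytosolic malic enzyme that yields NADPH, had 176, 264 and 164 CPM in CA and 3054, 2976 and 4328 CPM in O3. All O3 libraries were higher (log2 fold change 4.099, SE 0.25, adjusted p = 1.21e-41, edgeR). GSTF6 (AT1G02930, chromosome 1, 661088 to 662475), a phi class glutathione transferase, had 154, 67.3 and 144 CPM in CA and 5019.8, 6685 and 5720.2 CPM in O3. Its O3 libraries lay above all CA libraries (log2 fold change 5.58, SE 0.32, adjusted p = 1.34e-43, edgeR), but GSTF7 is 92.6% identical, so counts may be shared between them. AT1G79245, annotated as a pseudogene, had 484, 789.6 and 520.1 CPM in CA and 4437, 5533 and 4537 CPM in O3. It too was higher in every O3 library (3.02, SE 0.24). Among genes with at least 10 CPM in CA, the largest log2 increases included AT5G35735, an auxin-responsive family gene, at 6.41, BCB, the blue copper binding protein, at 6.25 and SYP122, a syntaxin of plasma membrane secretion, at 5.76. The largest decreases included AT5G62730, a transporter-like gene, at -4.57 and AT2G27420, a cysteine proteinase-like gene, at -4.53, which was -6.10 without O3 replicate I and -3.80 without the libraries numbered II. NIG1, annotated as a calcium-binding transcription factor, had 14.6, 14.3 and 14.4 CPM in CA and 1.15, 0.724 and 0.377 CPM in O3. It fell in all pairs (log2 fold change -4.36, SE 0.35, adjusted p = 3.49e-33, edgeR).

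Some genes were at or near 0 counts in 1 of the treatments. Of the genes tested in Sha, 851 had at most 3 counts in every CA library but more in O3, of which 375 were called higher, and 504 had at most 3 counts in every O3 library but more in CA, of which 123 were called lower. A further 3826 were at that floor in both groups. Folds of these genes are lower bounds against 3 counts per library. AT4G27890 (chromosome 4, 13886033 to 13887272), which encodes an HSP20-like chaperone, had 0, 0.0727 and 0.103 CPM in CA and 12.0, 18.6 and 18.3 CPM in O3. It was at least 82.6-fold higher. HSP17.6A (AT5G12030, chromosome 5, 3883957 to 3884838), another small heat shock protein, had 0.0907, 0.145 and 0.103 CPM in CA and 13.0, 1.45 and 14.1 CPM in O3. It was at least 48.1-fold higher, although O3 replicate II held much less than the others. On the other side, the oligopeptide transporter gene OPT9 was at least 8.81-fold lower, from 1.09 to 1.72 CPM in CA.

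Families defined by their annotated product, without regard to a pathway, gave further contrasts. NBS-LRR disease resistance genes, the intracellular immune receptors, were 73 higher and 8 lower of 119 (61.3% and 6.72%, median log2 fold change 1.11). Lectin and wall-associated receptor kinases were 32 higher and 7 lower of 50 (median 1.44), whereas leucine-rich repeat receptor kinases, which include many growth receptors, were 39 higher and 54 lower of 132 (median -0.42). The summed level of this last family went the other way, from 3921, 4300 and 3983 CPM in CA to 6636, 7062 and 6454 CPM in O3, with no overlap. RING and U-box proteins, most of them ubiquitin ligases, were 98 higher and 40 lower of 262, and class III peroxidases, secreted haem enzymes, 14 higher and 4 lower of 37. Pentatricopeptide repeat proteins, which process organelle RNA, were 12 higher and 62 lower of 195. Aminoacyl-tRNA synthetases were 3 higher and 18 lower of 51. GDSL lipases were 7 higher and 27 lower of 49, the largest share lower of these families. Ribosomal proteins had few calls, 11 higher and 47 lower of 311 (median -0.32), and their summed level was 44761, 20656 and 36760 CPM in CA and 30653, 15512 and 27463 CPM in O3, so that both libraries numbered II were low. What goes with that number was not tested.

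**Figure D4:**
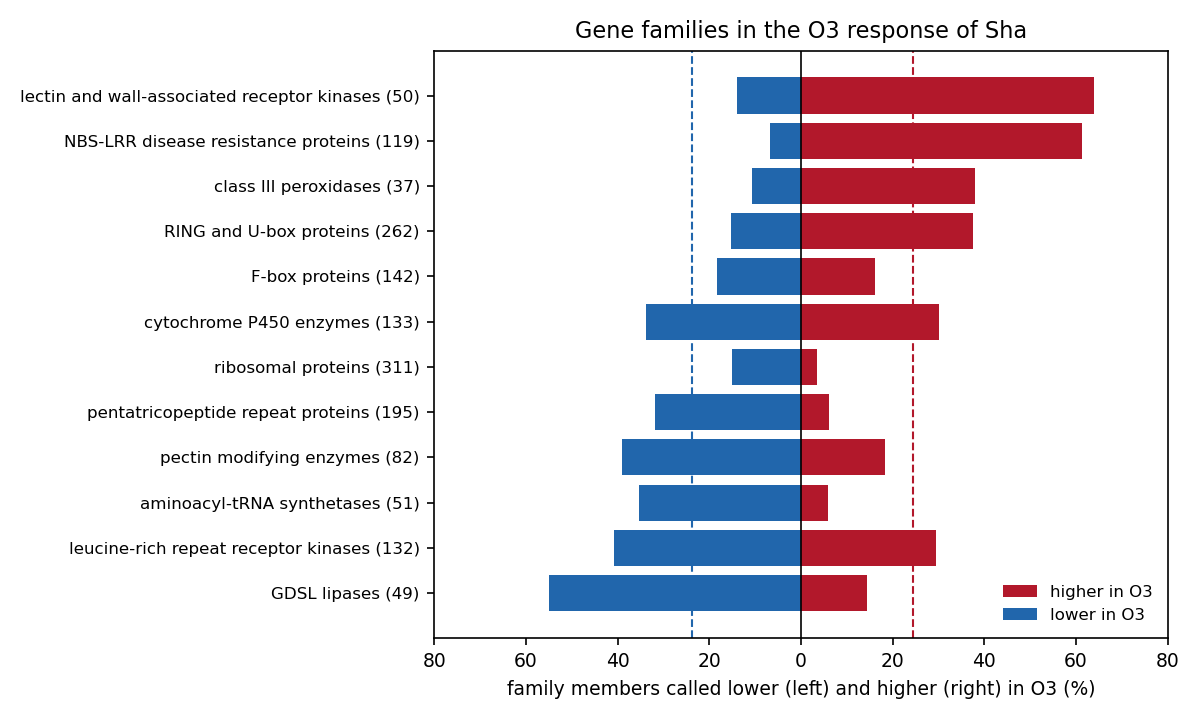
Percent of the members of each family (number with a mean of at least 1 CPM in brackets) called lower in O3 (blue, to the left) and higher in O3 (red, to the right) in Sha. Dashed lines mark the shares among all genes with at least 1 CPM, 24.4% higher and 23.9% lower. The NBS-LRR and the lectin and wall-associated kinase families exceed 60% higher, and GDSL lipases reach 55.1% lower.

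The Sha response was then set against that of Cvi with the interaction term of the model, the Cvi response minus the Sha response on the log2 scale. Among the genes with at least 1 CPM in Sha, the term was positive for 1543 (8.27%) and negative for 667 (3.57%). Over all genes tested the counts were 1806 and 742, and with a replicate block they were 2418 and 1356. In several lists where Sha genes were higher, a larger share than this background had a positive term. This was so for 12 of 28 jasmonate genes, 10 of 15 tryptophan and camalexin genes, 12 of 25 receptor and MAP kinase genes, 9 of 18 NAC genes, 9 of 22 GSTU genes and 7 of 19 salicylic acid genes. The medians in Cvi were 1.75, 2.97, 2.87, 4.67, 2.51 and 3.94 in the same order. In the photosystem, electron carrier, Calvin cycle and photorespiration lists the term was called for 0 genes, and for 1 in the light-harvesting list. A call that is missing does not show the responses to be alike. At an unadjusted p under 0.05, 1 of the 62 genes of the 4 lists without a call passed, and DESeq2 called 0. The endoplasmic reticulum list had the larger median in Sha (1.67, against 1.21 in Cvi), with 3 positive and 2 negative terms, and so had the UDP-glycosyltransferases (0.81 against 0.37, 6 positive and 8 negative). The median was also larger in Sha for CRKs (3.05 against 2.79, 6 positive and 5 negative of 28). The same held for sugar transport (0.90 against 0.40, 1 positive and 3 negative of 11). WRKY factors had the larger median in Cvi (2.51 against 1.95), with 10 positive and 5 negative terms of 50. All aliphatic glucosinolate genes were lower in Sha with a median of -1.55, against -2.20 in Cvi, and 3 of them had a negative term. The Cvi libraries held between 21699862 and 33571953 counts, and both accessions had been quantified on transcripts of Col-0, whose part in these differences was not tested.

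**Figure D5:**
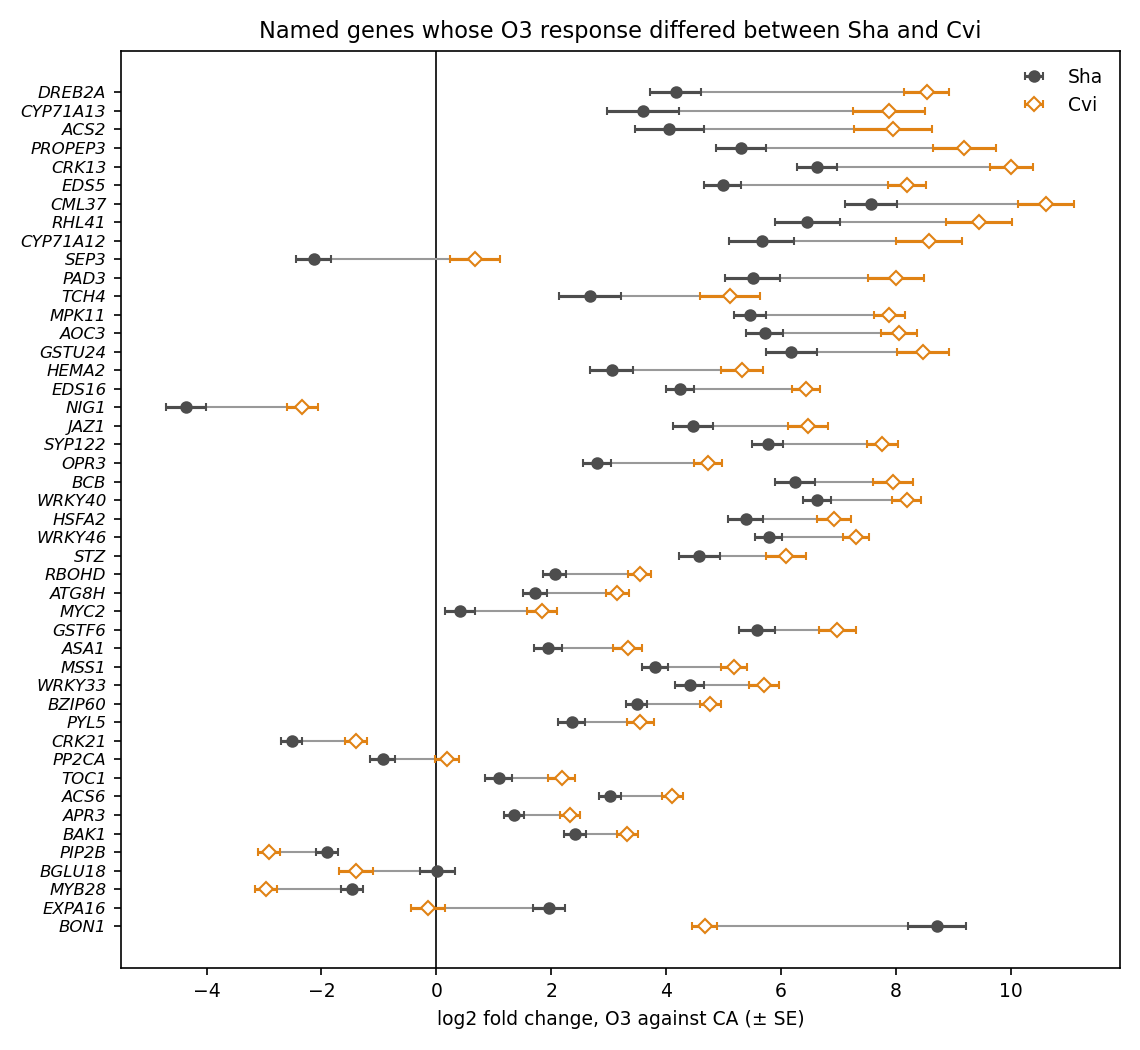
Log2 fold change in O3 against CA in Sha (filled circles) and Cvi (open diamonds) with SE, for named genes whose response differed between the accessions by the interaction term, sorted by the difference. CYP71A13, PROPEP3 and DREB2A lie among those with much larger responses in Cvi, and BON1 had the larger response in Sha. The values of CYP71A13 and BON1 are uncertain, as given above.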

How the data were processed

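RNA from pools of 4 whole rosettes aged 3 weeks had been sequenced after 2 h of 350 nL L-1 O3 or CA. The authors checked reads with FastQC, trimmed them with Trimmomatic 0.33 and quantified them with kallisto against AtRTD2, a transcript set of Col-0, and deposited estimated counts summed per gene. Of the deposited estimated counts 69.4% of values were not whole and were rounded. Of 34212 genes, 5663 had no count in the 12 libraries. The table also has 6 columns that match none of these samples, which were left out.

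Counts were fitted with edgeR 4.0.16 (R 4.3.3) over 12 libraries with TMM normalisation, a term for each accession and treatment and a likelihood-ratio test against a 1.2-fold change, with Benjamini-Hochberg adjustment. The study writes its threshold as a log2 fold change of 1.2. The main fit took it as 1.2-fold instead, and a log2 fold change of 1.2 was run as an alternative. DESeq2 1.42.0, edgeR's quasi-likelihood test, other normalisation and filters, a replicate block and omission of libraries were further alternatives. The step was tested on simulated data with 200 changed genes, the same spread for every gene and no link between libraries of the same number. The real data differ in these settings, so that test cannot vouch for the calls given here. A p-value measures the spread between pools only, and floors of 3 counts cover counting error only.

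Libraries of the same number were taken as pairs for the pair ratios, as the labels do not say what a number marks. Their deviations from the group means correlated over 18666 genes (0.411 for I, 0.618 for II and 0.427 for III). Unmatched libraries I and III also correlated (0.275 and 0.262), and II against I or III gave -0.480 to -0.438. Much of this structure is thus II against the others. The main fit has no term for pairs, so its SEs and p-values do not use them. Pair ratios are log2 ratios of CPM plus 0.5. Named genes were the 6 largest gains and losses in CPM and the 8 largest rises and falls among genes with at least 10 CPM in CA, called and without overlap of the groups, and in each list the largest called rise, the largest called fall and the member with the most counts. Other genes named were chosen after their values were seen. Members and lists were chosen with earlier results of these data known. The gene annotated as SAUR21 (AT5G01830) is described as an ARM repeat protein and was left out of the SAUR list. Promoter windows and coordinates come from RefSeq TAIR10.1, and near copies were found with blastn 2.17.0.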

Additional observations from a re-analysis of the deposited data

Results flagged for a closer look

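47 of the genes named above or chosen by the same rule had an O3 response that differed between Cvi and Sha by the interaction term of the edgeR model, which tests the difference itself. Values in brackets are the Cvi response minus the Sha response on the log2 scale. The term was positive for 41 and negative for 6. Among hormone genes it was positive for ACS2 (3.90), EDS5 (3.22), AOC3 (2.34), EDS16 (2.19), JAZ1 (2.01), OPR3 (1.93), PYL5 (1.197), PP2CA (1.12) and ACS6 (1.08). Among transcription factor genes it was positive for DREB2A (4.37), RHL41 (2.99), NIG1 (2.02), WRKY40 (1.56), HSFA2 (1.54), WRKY46 (1.52), STZ (1.51), MYC2 (1.42), WRKY33 (1.29), BZIP60 (1.28) and TOC1 (1.097). Among immune, calcium and ROS genes it was positive for PROPEP3 (3.89), CRK13 (3.39), CML37 (3.05), MPK11 (2.43), SYP122 (2.00), RBOHD (1.48), CRK21 (1.12) and BAK1 (0.91). Among genes of metabolism, detoxification and transport, and others it was positive for CYP71A13 (4.29), CYP71A12 (2.91), SEP3 (2.81), PAD3 (2.49), TCH4 (2.44), GSTU24 (2.301), HEMA2 (2.27), BCB (1.70), ATG8H (1.43), GSTF6 (1.404), ASA1 (1.39), MSS1 (1.37) and APR3 (0.97). It was negative for HSP23.6-MITO (-5.005), BON1 (-4.05), EXPA16 (-2.11), MYB28 (-1.49), BGLU18 (-1.42) and PIP2B (-1.01). The terms of MYB28, PIP2B and BGLU18 are not larger rises in Sha. MYB28 had -1.47 in Sha and -2.97 in Cvi, PIP2B -1.91 and -2.915, and BGLU18 0.02 and -1.40. Genes given above as uncertain for an overlap or near copies, such as BON1 and CYP71A13, are uncertain here too. CRK21, NIG1, SEP3 and PP2CA were lower in Sha and fell by less or not at all in Cvi. PP2CA had -0.93 in Sha and 0.18 in Cvi, so its positive term is not a larger rise. The genes were named for their values in Sha, or after their values were seen, so their number is no measure of how common such differences are. The HSP23.6-MITO term is a fitted value against CA libraries without a count in Sha and depends on the prior count. Both accessions were read against transcripts of Col-0, and its part in these differences was not tested.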

How the results depend on the processing

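Tested against a log2 fold change of 1.2 instead of a 1.2-fold change, Sha had 2075 higher and 880 lower genes, and the difference between accessions was positive for 464 and negative for 66, because the threshold itself is higher. Under that reading the counts of higher genes fell from 11 to 1 for the proteasome, from 11 to 1 for autophagy and from 6 to 1 for antioxidant enzymes, and those of lower genes from 15 to 1 for antioxidant enzymes, 15 to 4 for aquaporins, 15 to 5 for carotenoid synthesis, 10 to 3 for starch turnover, 7 to 0 for sulfate, 5 to 0 for clock genes and 4 to 0 for the cell cycle, while light-harvesting genes went from 20 to 13 lower, cysteine-rich kinases from 25 to 22 higher and salicylic acid genes from 18 to 16 higher. The negative count of 742 also became 323 with DESeq2, 489 with the quasi-likelihood test and 1356 with the replicate block; the cause was not tested. Omitting 1 library at a time gave 4691 to 5477 higher and 3834 to 5043 lower genes in Sha, and 1379 to 1868 positive and 498 to 893 negative differences. The replicate block gave 5565 higher and 5398 lower genes in Sha, DESeq2 4359 and 3618. A fit of the 6 Sha libraries alone gave 4787 and 3901, and it kept 92.9% of the higher and 82.0% of the lower calls. No gene called in Sha was called in the opposite direction under any alternative. Of the values of named genes under all alternatives, 2771 kept direction and side of the threshold, 113 lost a call, 11 gained one and 17 changed sign, and of the list counts 1526 stayed within 1.5 times and 170 did not. The values that changed sign belong to 7 genes not called in Sha, and the cause was not tested. Leaving out 1 library at a time, OZS1 (AT1G12480) ranged from -0.436 to 0.743, BGLU18 (AT1G52400) from -0.279 to 0.264, PR1 (AT2G14610) from -0.291 to 0.833, MPK12 (AT2G46070) from -0.374 to 0.0905, PHO1 (AT3G23430) from -0.229 to 0.130, GAMMA-VPE (AT4G32940) from -0.699 to 1.492 and RPN8A (AT5G05780) from -0.211 to 0.116. BGLU18 was also -0.0436 in Sha alone with the replicate block and -0.0795 with the block over both accessions, and with filterByExpr PHO1 was 0.0390 and RPN8A 0.0403. With 3 pools a group, small changes may be missed.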
